A study of Homo sapiens with 3 samples.

Results

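The comparison set DU145 cells transfected with a plasmid carrying the L597R mutant of BRAF against DU145 cells given the empty P-Enter vector as negative control. The unit of description was the gene: 6174 protein-coding genes had a mean of at least 5 FPKM (fragments scaled to exon length and to the reads of the library) over the 2 libraries, of 14117 protein-coding genes and 23379 genes of any class in the tables. TMEM161B (mean 5.00089 FPKM) and TSPAN33 (5.00108 FPKM) lay just inside this limit, and CYP51A1 (4.99878 FPKM) and ZUP1 (4.9955 FPKM) just outside it. DU145 is an established human prostate cancer cell line, and the series holds 1 poly(A)-selected, stranded RNA library of each of 3 transfections. The third library came from DU145 cells made to overexpress wild-type BRAF, called WT here. All 3 groups share the parental line, and the labels give no dose, time after transfection, selection step or clone. With 1 library a group there is no replicate spread, so no p-value is given. Intervals cover the counting of reads only, compare 2 libraries rather than 2 conditions, and treat PCR copies as independent molecules.

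BRAF is a serine/threonine kinase that is switched on by RAS at the membrane and phosphorylates MEK, which in turn phosphorylates ERK. ERK enters the nucleus, where it raises transcripts of immediate-early transcription factors and of its own inhibitors, the DUSP phosphatases and Sprouty proteins. The L597R change replaces a leucine in the activation segment of the kinase by arginine and is a known activating mutation.

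The libraries held 13294004 (P-Enter), 15665132 (WT) and 16603676 (L597R) counted reads, and the members had a median of 1008 reads in P-Enter and 1295.5 in L597R, with 21 as the fewest. Of the markers of the line, KRT18 was at 34.3, 36.6 and 37.6 FPKM and VIM at 130, 127 and 132 FPKM in P-Enter, WT and L597R. CDH1 had 1, 0 and 0 reads, so the epithelial cadherin was at or near 0 in every library. Summed markers of fibroblasts reached at most 0.156 FPKM, of endothelium 0.154 FPKM and of leukocytes 0.0246 FPKM.

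The difference between the libraries followed the base composition of the genes. In the 618 members with the lowest GC content (median 37.5% of exon bases) the median difference, on the log2(FPKM + 1) scale as L597R minus P-Enter, was 0.33. In the 618 with the highest GC content (median 63.2%) it was -0.12. Across the 6174 genes, which are not independent replicates and share both libraries, Spearman's correlation between GC content and the difference was -0.72. It was -0.49 for WT minus P-Enter, which shares the P-Enter library. A smooth curve fitted to this trend was subtracted from every gene, which removed 56.5% of the variance and left a correlation of -0.01. The source of the trend was not tested. All differences below are corrected values on the log2(FPKM + 1) scale unless called uncorrected, and this scale understates the change of low genes.

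**Figure D1:**
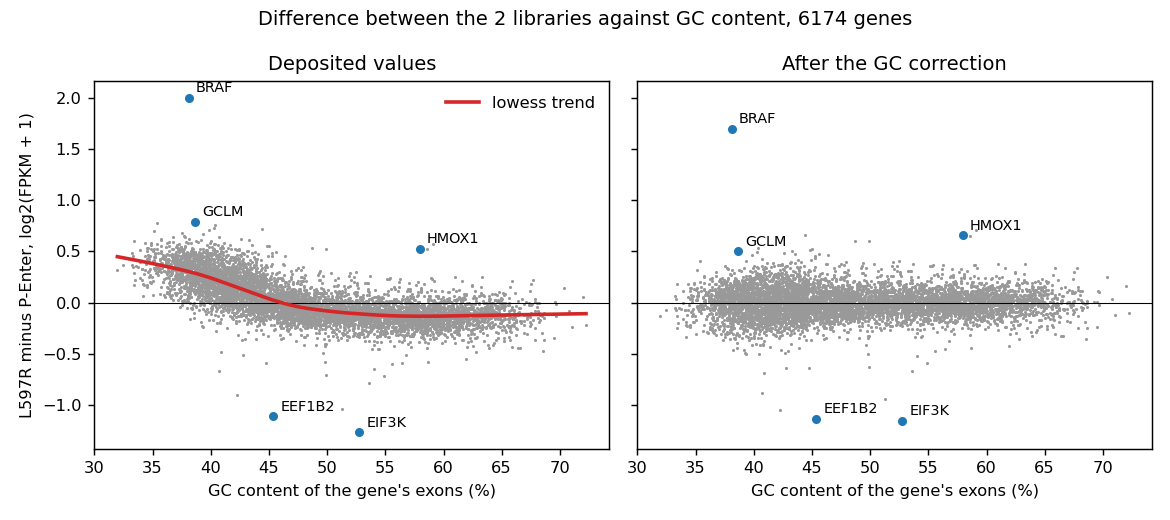
Each grey point is 1 of the 6174 genes, with the GC content of its exons in percent on the x axis and its difference between L597R and P-Enter, log2(FPKM + 1), on the y axis, before (left) and after (right) the correction, with 5 genes named in blue. The fitted red curve descends from genes of low to genes of middle GC content and flattens above about the median, with medians over 10 equal parts of the genes from 0.33 to -0.14 before the correction.

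After the correction the middle 90% of genes lay between -0.22 and 0.23. Their spread was wider than counting error: for the 3488 genes with at least 2000 reads the SD of the corrected log2 read ratio was 0.138, against a counting error of 0.047. An interval that leaves out 1 was therefore common, at 19% of members above and 19.3% below. Higher in L597R by at least 1.5-fold were 7 genes (0.113% of members), and lower by that much were 11 (0.178%). Without the correction these counts were 30 higher (0.486%) and 12 lower (0.194%), so the correction turned the balance of the calls. A smaller limit of 0.32 on the log2 scale, which is 25% higher or 20% lower, was passed by 94 genes above (1.52%) and by 77 of the 6174 below with the correction, against 701 (11.4%) and 126 (2.04%) without it.

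BRAF, the transfected gene, was the gene with the largest difference. It stood at 1.65 FPKM (514 reads) in P-Enter, 4.41 FPKM (1617 reads) in WT and 9.59 FPKM (3733 reads) in L597R. The control was thus lowest and the mutant library highest, with the wild-type library between them. The corrected difference was 1.70 (2.0 uncorrected), and the corrected ratio of reads was 4.62 (95% interval 4.21 to 5.07). The gene lies on the minus strand of chr7:140719327-140924928 (GRCh38) and 5.29% of its exon bases are shared with NDUFB2 on the other strand. Gene-level values do not separate plasmid from endogenous transcript, do not show the mutated codon, and cannot tell more transfected cells from more RNA per cell. Because the L597R library also held more BRAF than the WT library, the amount of BRAF and the mutation cannot be told apart in these values.

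**Figure D2:**
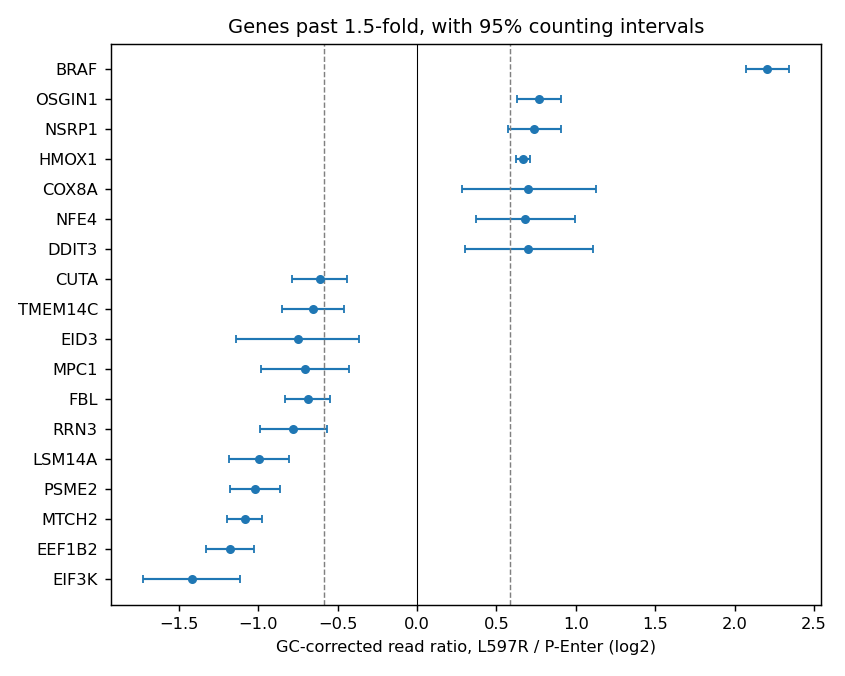
Corrected read ratio (log2, x axis) of L597R over P-Enter for the genes past 1.5-fold, with 95% counting intervals as bars and dashed lines at 1.5-fold in each direction. BRAF stands at a ratio of 4.62, and the other genes lie between 0.374 (EIF3K) and 1.70 (OSGIN1).

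The other 6 genes higher by 1.5-fold included OSGIN1 and HMOX1, both known for induction by oxidative stress, and DDIT3, the stress-induced transcription factor CHOP. OSGIN1, a growth inhibitor induced by oxidants, was at 8.99, 10.5 and 13.9 FPKM in P-Enter, WT and L597R, a difference of 0.71. It shares 13.9% of its exon bases with another annotated gene on its strand. HMOX1, which breaks down haem, was at 193, 209 and 277 FPKM, a difference of 0.66 and a read ratio of 1.59 (1.54 to 1.64). In both genes the mutant library was highest and the control lowest. On GRCh38 they span chr16:83948282-83966332 and chr22:35380361-35394214, both on the plus strand. NSRP1, a splicing regulator of nuclear speckles, was at 6.59, 8.57 and 11.5 FPKM (0.66). COX8A, NFE4 and DDIT3 rested on fewer reads. COX8A, a subunit of cytochrome c oxidase, was at 11.3, 14.9 and 16.6 FPKM on 74 reads in P-Enter and 136 in L597R (0.65, read ratio 1.62, 1.21 to 2.19), and 34.5% of its exon bases are shared with another annotated gene on its strand. NFE4 was at 6.17, 8.34 and 9.33 FPKM (0.61). DDIT3 was at 4.55, 5.37 and 7.05 FPKM on 79 and 153 reads (0.60, read ratio 1.62, 1.23 to 2.16). It shares 27.2% of its exon bases with MARS on the other strand, and since the strand setting of the counting is not given, reads of the pair may be mixed. Without the correction OSGIN1 (0.57), HMOX1 (0.52), DDIT3 (0.54), COX8A (0.52) and NFE4 (0.53) fell short of 1.5-fold, which is 0.585 on this scale, and BRAF and NSRP1 (0.72) did not.

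The 11 genes lower by 1.5-fold included the translation factors EIF3K (-1.15) and EEF1B2 (-1.13) and several genes of mitochondria, the proteasome and RNA handling. MTCH2, an insertase of the outer mitochondrial membrane, was at 46.7, 24.2 and 24.6 FPKM in P-Enter, WT and L597R, a difference of -1.05 and a read ratio of 0.471 (0.437 to 0.507). The wild-type library was as low as the mutant one, so the difference set the control apart from both. The gene spans chr11:47617315-47642623 on the minus strand. PSME2, a subunit of the proteasome activator PA28, was at 19.3, 15.1 and 8.88 FPKM (-0.94, read ratio 0.494, 0.443 to 0.55). FBL, the methyltransferase of box C/D small nucleolar ribonucleoproteins, was at 35.6, 39.3 and 20.2 FPKM (-0.67, read ratio 0.62, 0.563 to 0.683). Here the mutant library alone was low and WT was not below the control. LSM14A, a P-body protein, was at 9.23, 6.5 and 5.44 FPKM (-0.88).

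RRN3, an initiation factor of RNA polymerase I with near-identical pseudogene copies that make its count uncertain, was at 7.45, 4.77 and 5.06 FPKM in P-Enter, WT and L597R (-0.68). MPC1, a subunit of the mitochondrial pyruvate carrier, was at 11.5, 8.75 and 7.79 FPKM (-0.64), and TMEM14C, a mitochondrial protein needed for haem synthesis, at 28.9, 13.4 and 17.3 FPKM (-0.63). In RRN3 and TMEM14C the WT value was the lowest of the 3, while MPC1 and CUTA (25.7, 18.4 and 15.3 FPKM, -0.59) were lowest in the mutant library. EID3, which lies within the span of TXNRD1 on the same strand, was at 6.67, 4.66 and 4.11 FPKM (-0.63), while TXNRD1 itself was higher in L597R. Of the 2 nearest members of each of these 11 genes, at distances of up to 1443909 bases, FNBP4 near MTCH2 was at -0.35, GMPR2 near PSME2 at -0.32, PDCD2L near LSM14A at -0.33, SFT2D1 near MPC1 at -0.30 and CEP20, 771403 bases from RRN3, at -0.49. FNBP4, PDCD2L and CEP20 passed the smaller limit, which is 0.3219 before rounding. GMPR2 (-0.321) and SFT2D1 fell short of it, and 77 of all 6174 members passed it on the lower side. The other near member of MTCH2 (CELF1) was at -0.11, that of PSME2 (PSME1) at -0.04 and that of LSM14A (GPI) at 0.03. That of MPC1 (AFDN) was at -0.01 and that of RRN3 (NOMO1) at 0.003, so the lower values were not shared by both neighbours. KIFC1, 6518 bases from CUTA, was at 0.33. The nearest members of EIF3K, EEF1B2 and FBL lay between -0.05 and 0.11.

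Genes driven by NRF2, the transcription factor that KEAP1 marks for degradation until oxidants or electrophiles release it, lay on the higher side where they passed the limit of 5 FPKM. Of these 25 genes, of 33 on the list in the tables, 25 were above 0 and 0 below with the correction (49.2% and 50.8% of all members) and 19 above and 6 below without it. With the correction 9 of the 25 passed 0.32 above, against 1.52% of all members, and 0 below. Without it 6 passed 0.32 above, against 11.4% of all members. The interval of the corrected read ratio lay above 1 for 19, against 19% of all members. Their median was 0.15 (0.13 uncorrected), against -0.0027 over all members. The other 8 genes of the list stood under 5 FPKM, and 3 more, the AKR1C1, AKR1C2 and AKR1C3 reductases, were not analysed here.

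NFE2L2, which encodes NRF2 itself, was at 12.9, 14.5 and 19.5 FPKM in P-Enter, WT and L597R (0.51, read ratio 1.46, 1.35 to 1.58), with 17.6% of its exon bases shared with another annotated transcript of its strand. The 3 listed targets past 0.32 in glutathione and thioredoxin metabolism had the same order of libraries. GCLM, the regulatory subunit of the enzyme that limits glutathione synthesis, was at 23.3, 27.8 and 40.9 FPKM (0.50, 0.79 uncorrected). SLC7A11, the cystine importer, was at 22.3, 28.4 and 39 FPKM (0.41, 0.78 uncorrected). TXNRD1, thioredoxin reductase, was at 207, 231 and 284 FPKM (0.47, 0.46 uncorrected). GCLM and SLC7A11 are AT-rich (38.6% and 35.4% GC), so much of their uncorrected difference fell on the trend, whereas HMOX1 (58% GC) gained from the correction. TRIM16L was at 7.78, 7.87 and 9.77 FPKM (0.38, 0.29 uncorrected), with WT at the level of the control.

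Both ferritin chains, which store iron, were higher. FTL was at 6003, 6329 and 7065 FPKM in P-Enter, WT and L597R (0.37, 0.23 uncorrected) and FTH1 at 109, 123 and 131 FPKM (0.34, 0.26 uncorrected). Both have many processed pseudogenes, and FTH1 shares 62.4% of its exon bases with BEST1 on the other strand, so their counts are uncertain. Other members stood nearer 0. NQO1, a quinone reductase, was at 291, 289 and 316 FPKM (0.12) and MAFG, the partner of NRF2 on DNA, at 17, 16.3 and 17.5 FPKM (0.17). The pentose phosphate enzymes TALDO1 (0.14), TKT (0.13) and PGD (0.05) and the glutathione reductase GSR (0.01) lay within the middle 90% of all genes. KEAP1, the inhibitor, was at 57.7, 57.2 and 53.3 FPKM (0.01).

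**Figure D3:**
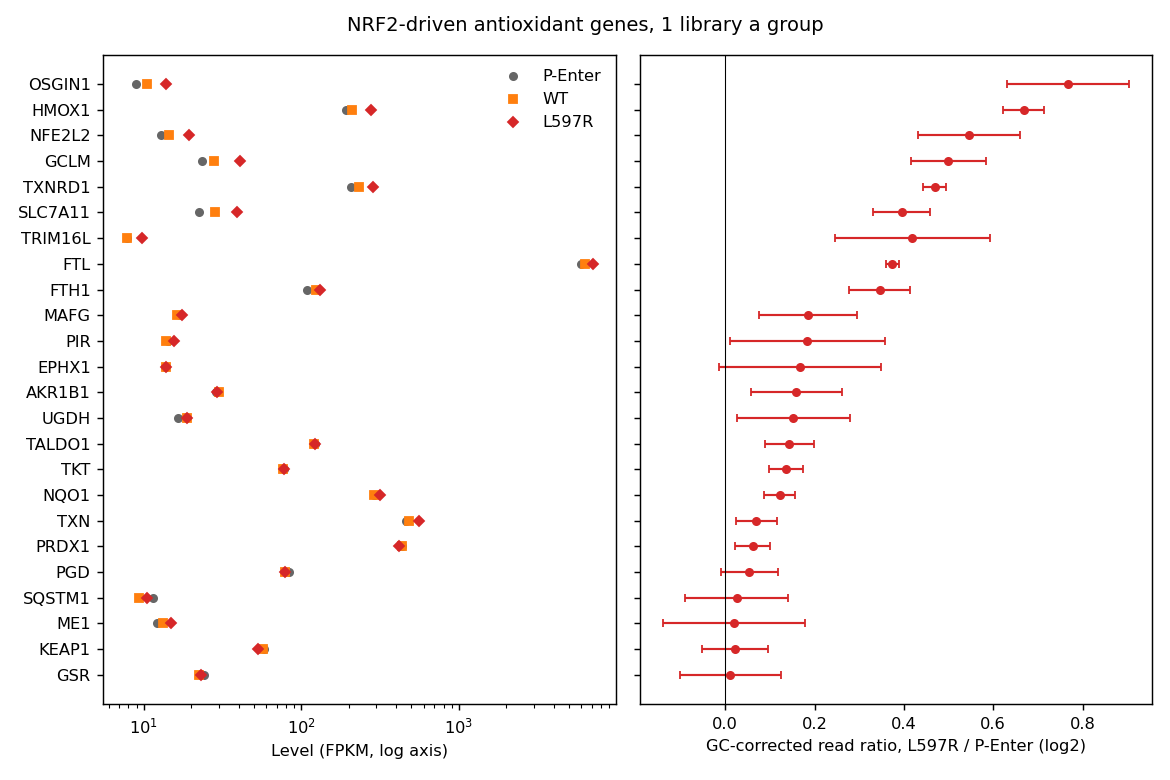
Levels (left, FPKM on a log axis) in P-Enter, WT and L597R and corrected read ratio with 95% counting interval (right, log2) for 24 of the 25 members of the NRF2 list. The largest differences are those of OSGIN1 and HMOX1, and the smallest, GSR and KEAP1, both have differences of 0.01.

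Promoter windows are printed for the 3 members of the NRF2 list that lie past 0.32 and hold a match to the antioxidant response element or to AP-1. The list members PIR (0.17), PGD (0.05) and ME1 (0.02) hold matches as well and are not printed. OSGIN1 has an AP-1 match and none to the antioxidant element in this window. The windows are the 150 bases before the RefSeq transcript start, 5′ to 3′ on the gene's strand, on GRCh38.p14, with the match in capitals: OSGIN1 at chr16:83953090-83953239 on the plus strand, GCLM at chr1:93909431-93909580 on the minus strand and TXNRD1 at chr12:104215629-104215778 on the plus strand.
OSGIN1: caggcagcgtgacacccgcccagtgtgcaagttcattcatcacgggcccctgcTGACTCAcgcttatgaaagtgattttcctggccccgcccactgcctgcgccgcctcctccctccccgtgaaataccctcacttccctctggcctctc
GCLM: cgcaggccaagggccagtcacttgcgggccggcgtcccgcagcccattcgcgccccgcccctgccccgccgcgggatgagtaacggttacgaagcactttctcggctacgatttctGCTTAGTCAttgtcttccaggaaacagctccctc
TXNRD1: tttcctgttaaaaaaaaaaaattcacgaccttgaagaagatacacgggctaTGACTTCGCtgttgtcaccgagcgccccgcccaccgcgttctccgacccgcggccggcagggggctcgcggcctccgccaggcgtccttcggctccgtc
OSGIN1 holds TGACTCA, an AP-1 match, with its first base at -97 from the start. GCLM holds GCTTAGTCA, an antioxidant response element read on the other strand, at -34, and TXNRD1 holds TGACTTCGC at -99. TXNRD1 has a second antioxidant match, GCTCCGTCA at -8, which runs past the end of the printed window and is not in capitals.

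Both motifs were searched on both strands as TGACNNNGC (antioxidant response element) and TGANTCA (AP-1), which overlap in sites such as the TGACTCAGC of ME1, in windows from 250 bases before to 50 after the start. A RefSeq promoter was matched for 5211 of the 6174 members and for 18 of the 25 NRF2-list members. The antioxidant motif was found in 13.56% of the 27305 promoters of the table, in 16.33% of members, in 5 of the 18 matched NRF2-list genes (27.78%), in 12.82% of 78 matched genes past 0.32 above and in 25.42% of 59 matched genes past 0.32 below. AP-1 was found in 7.764% of all promoters, in 3.915% of members, in 7.692% of those 78 genes in 1.695% of those 59 and in 3 of the 18 NRF2-list genes (16.67%). The ETS motif CCGGAAG, searched in the same way, was in 10.67% of all promoters, 22.84% of members, 28.21% of the 78 and 22.03% of the 59. TGATGNAA (an ATF4-CEBP element) was in 0 of both sets and 1.631% of members, and the heat shock element in 1 of the 78, in 0 of the 59 and in 0.2879% of members. The antioxidant letters were thus at a lower share among the higher genes than among the lower ones. A match describes letters in a window and does not show binding.

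The 13 mRNAs encoded by mitochondrial DNA lay on the lower side, with 1 above 0 and 12 below, 0 past 0.32 above and 3 past it below, and a median of -0.16 (3 above and 10 below uncorrected, median -0.15). The interval lay below 1 for 10 of them, against 19.3% of all members. These mRNAs encode subunits of respiratory complexes I, III, IV and V. MT-ND6, the one mRNA of the light strand, was at 338, 358 and 263 FPKM in P-Enter, WT and L597R (-0.49). Since the strand setting of the counting is not given, reads of the opposite strand may be mixed into its count. MT-ND3 was at 661, 662 and 586 FPKM (-0.41) and MT-ND5 at 737, 775 and 587 FPKM (-0.37). In these 3 complex I genes the mutant library was lowest and WT was at or above the control. MT-CO1 was at 4057, 4058 and 3665 FPKM (-0.14), and MT-ND2 at 950.2, 996 and 1033 FPKM (0.00). Reads of mitochondrial genes made up 2.013%, 2.008% and 1.79% of the libraries.

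**Figure D4:**
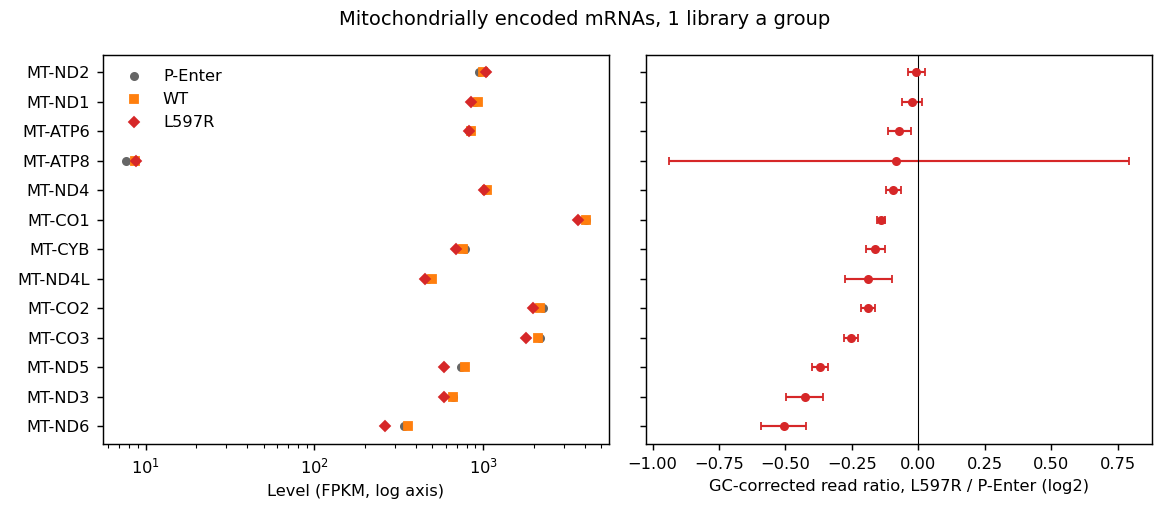
Levels (left, FPKM on a log axis) in P-Enter, WT and L597R and corrected read ratio with 95% counting interval (right, log2) for the 13 mitochondrially encoded mRNAs. MT-ND6, MT-ND3 and MT-ND5 are lowest, and MT-ATP8, at 7.63, 8.63 and 8.73 FPKM, has by far the widest interval.

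The nuclear genes of the respiratory chain gave no single direction. Of 23 complex I members 13 were above 0 and 10 below (median 0.01), with NDUFA4 the one past 0.32: 46.6, 44.7 and 44.9 FPKM (-0.35, -0.05 uncorrected). Of 33 members of complexes II to V 12 were above and 21 below (median -0.07), and COX7A2 was at 63.7, 65.8 and 61.9 FPKM (-0.32, -0.04 uncorrected). Of 68 mitochondrial ribosomal proteins 30 were above and 38 below (median -0.03). MRPS21 was at 31.8, 27 and 23.4 FPKM (-0.35). The differences of NDUFA4 and COX7A2 come almost wholly from the correction, while MRPS21 was lower on both scales.

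Listed output genes of the pathway showed no difference past 0.32, a limit that few genes of any kind passed. Of 10 MAPK output genes of at least 5 FPKM, transcripts that ERK is known to raise, 2 were above 0 and 8 below. Their median was -0.06, and 0 were past 0.32 in either direction. Of all 6174 members 94 passed this limit above and 77 below, so a list of 10 would seldom hold such a gene. The count of 0 therefore does not show whether the output of the pathway changed. DUSP6, the ERK phosphatase, was at 5.48, 6.07 and 5.42 FPKM in P-Enter, WT and L597R (0.02). SPRY2, a feedback inhibitor of RAS signalling, was at 19.5, 17.9 and 16.4 FPKM (-0.18), the transcription factor ETV5 at 10.9, 9.72 and 9.29 FPKM (-0.16), and cyclin D1 (CCND1) at 185, 181 and 170 FPKM (-0.02). None of these 4 was highest in the mutant library. Below 5 FPKM, and picked after their values were seen, the immediate-early factors EGR1 (106, 110 and 184 reads) and FOS (5, 11 and 27 reads) and the matrix protease MMP3 (23, 38 and 127 reads, uncorrected read ratio 4.42, 2.82 to 7.23) had most reads in the mutant library. Of 15 immediate-early and AP-1 genes 9 were above and 6 below (median 0.01). KLF10, a zinc finger factor induced by TGF-beta, was at 27.6, 27.8 and 33.8 FPKM (0.36, 0.28 uncorrected).

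Among 27 members of the RAS-RAF-MEK-ERK chain 15 were above 0 and 12 below, with a median of 0.00. Past 0.32 above were 2 members, BRAF among them, against 1.52% of all members. RASA1, a GTPase activator that switches RAS off, was at 11.7, 15.6 and 17.7 FPKM in P-Enter, WT and L597R (0.47, read ratio 1.42, 1.3 to 1.54), and shares 14.7% of its exon bases with CCNH on the other strand. HRAS was at 16, 7.94 and 11.3 FPKM (-0.35, read ratio 0.767, 0.675 to 0.872), so WT was lower than both. Other kinases of the chain stood within the middle 90% of all genes: ARAF (-0.12), MAP2K1 (0.04), MAP2K2 (-0.02) and MAPK3 (-0.04). Of 13 receptor tyrosine kinases and EGFR ligands 6 were above and 7 below, with 0 past 0.32. The EGFR ligands AREG (4.9, 4.24 and 6.79 FPKM, 0.27) and EREG (7.99, 8.92 and 12.6 FPKM, 0.26) were highest in the mutant library.

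Stress lists other than NRF2 held single genes past 0.32 above, against 1.52% of all members. A single gene is too few to set a list of this size apart from other genes. The integrated stress response had 17 of 24 members above 0 and a median of 0.06. In it the amino acid transporter SLC7A5 (98.9, 100.3 and 107 FPKM, 0.24), the serine synthesis enzyme PHGDH (31.6, 33.1 and 35.4 FPKM, 0.26) and the pseudokinase TRIB3 (12.6, 13 and 13.7 FPKM, 0.24) stood under 0.32, and ATF4, the factor that drives them, was at -0.02. The unfolded protein response had 9 of 23 above and a median of -0.04. Its one member past 0.32 was DNAJB9, a co-chaperone of the endoplasmic reticulum, at 4.12, 6.09 and 7.48 FPKM (0.50), while the chaperone HSPA5 was at 206, 194 and 188 FPKM (-0.14). Heat shock chaperones had 18 of 26 above and a median of 0.03, with HSP90AA1 at 364, 394 and 469 FPKM (0.37). GADD45A, a growth arrest gene of the p53 list, was at 74.3, 73.4 and 85.4 FPKM (0.33, 0.20 uncorrected), and the metallothionein MT2A, which binds zinc and copper, at 1569.9, 1621 and 1847 FPKM (0.37, 0.23 uncorrected).

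Beside the NRF2 list, the NF-kB, YAP and TGF-beta, hypoxia and epithelial lists had medians of 0.10 or more. The epithelial list had 4 of 6 members above 0 (median 0.11, 0.10 uncorrected). NF-kB targets and cytokines had 8 of 10 members above 0 (median 0.11). Uncorrected, 6 were above and 4 below (median 0.05). The chemokine CXCL1 was at 6.13, 8.25 and 8.8 FPKM in P-Enter, WT and L597R (0.43, read ratio 1.41, 1.11 to 1.79). YAP and TGF-beta targets had 10 of 14 above (median 0.10, 0.00 uncorrected). ANKRD1, a YAP target, was at 111, 117 and 170 FPKM (0.50, read ratio 1.41, 1.35 to 1.48), so WT stood near the control, and CCN2 was at 77, 76 and 86.2 FPKM (0.26). Hypoxia and angiogenesis genes were above 0 in 6 of 6 members (median 0.15), and 0 passed 0.32, against 1.52% of all members. HIF1A was furthest from 0 (26.7, 31.7 and 38.1 FPKM, 0.21). CALD1, an actin-binding protein of the mesenchymal list (3 of 5 above 0, median 0.03), was at 12.5, 15.2 and 20.1 FPKM (0.43), beside VIM at 0.10.

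Genes of protein synthesis and turnover lay slightly to the lower side. Translation factors had 14 of 42 members above 0 and 28 below (median -0.03), with 3 past 0.32 below. EIF3K was at 8.12, 5.13 and 2.8 FPKM in P-Enter, WT and L597R, EEF1B2 at 40.3, 35.7 and 18.1 FPKM, and EIF5A at 29.2, 19.9 and 20.2 FPKM (-0.38). For EIF5A the WT library was as low as the mutant one, whereas EIF3K and EEF1B2 were lowest in the mutant library. Proteasome genes had 8 of 37 above (median -0.04). Beside PSME2, PSMD10, a chaperone of the regulatory particle, was at 19.7, 18.8 and 17.1 FPKM (-0.46, -0.19 uncorrected) and PSMA5, a subunit of the core, at 54.3, 51.7 and 48.8 FPKM (-0.44, -0.15 uncorrected). Cytosolic ribosomal proteins had 27 of 74 above (median -0.05, 0 past 0.32).

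RNA processing and metabolism held a few lower genes each. Spliceosomal proteins had 10 of 37 members above 0 (median -0.07, 0 past 0.32). The RNA-binding proteins HNRNPC (158, 150 and 147 FPKM in P-Enter, WT and L597R, -0.39, -0.10 uncorrected) and HNRNPD (84.8, 87.8 and 78.6 FPKM, -0.36, -0.11 uncorrected) owed most of their difference to the correction, while the helicase DHX35 (10.9, 10.5 and 8.17 FPKM, -0.34) did not. In the polymerase II and Mediator list, MED30 was at 11.5, 11.7 and 9.62 FPKM (-0.51, -0.24 uncorrected), MED8 at 11.1, 13.1 and 14.1 FPKM (0.37) and POLR2K at 37.1, 37.5 and 38.9 FPKM (-0.33). POLR2K stood at 0.07 uncorrected, so its direction rests on the correction. LDHA, which turns pyruvate into lactate, was at 53.3, 43.3 and 43 FPKM (-0.36, -0.30 uncorrected), lower in both BRAF libraries. RAB9A (11.4, 9.37 and 10.7 FPKM, -0.34, -0.08 uncorrected) was lowest in WT, and its difference from the control owed most of its size to the correction. H2BC11 was at -0.35 with a read ratio of 0.753 whose interval included 1 (0.563 to 1.01), and ZNF205 was at 0.33 (0.22 uncorrected).

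Cell cycle genes stood near 0. G1/S and replication genes had 10 of 37 members above 0 (median -0.04) and 0 past 0.32. Mitotic genes had 21 of 38 above and a median of 0.01, against 0.13 uncorrected, and the checkpoint kinase TTK was at 11.9, 13.4 and 17.8 FPKM in P-Enter, WT and L597R (0.35). The AT-rich mitotic genes thus lay close to the trend of all genes of their composition.

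**Figure D5:**
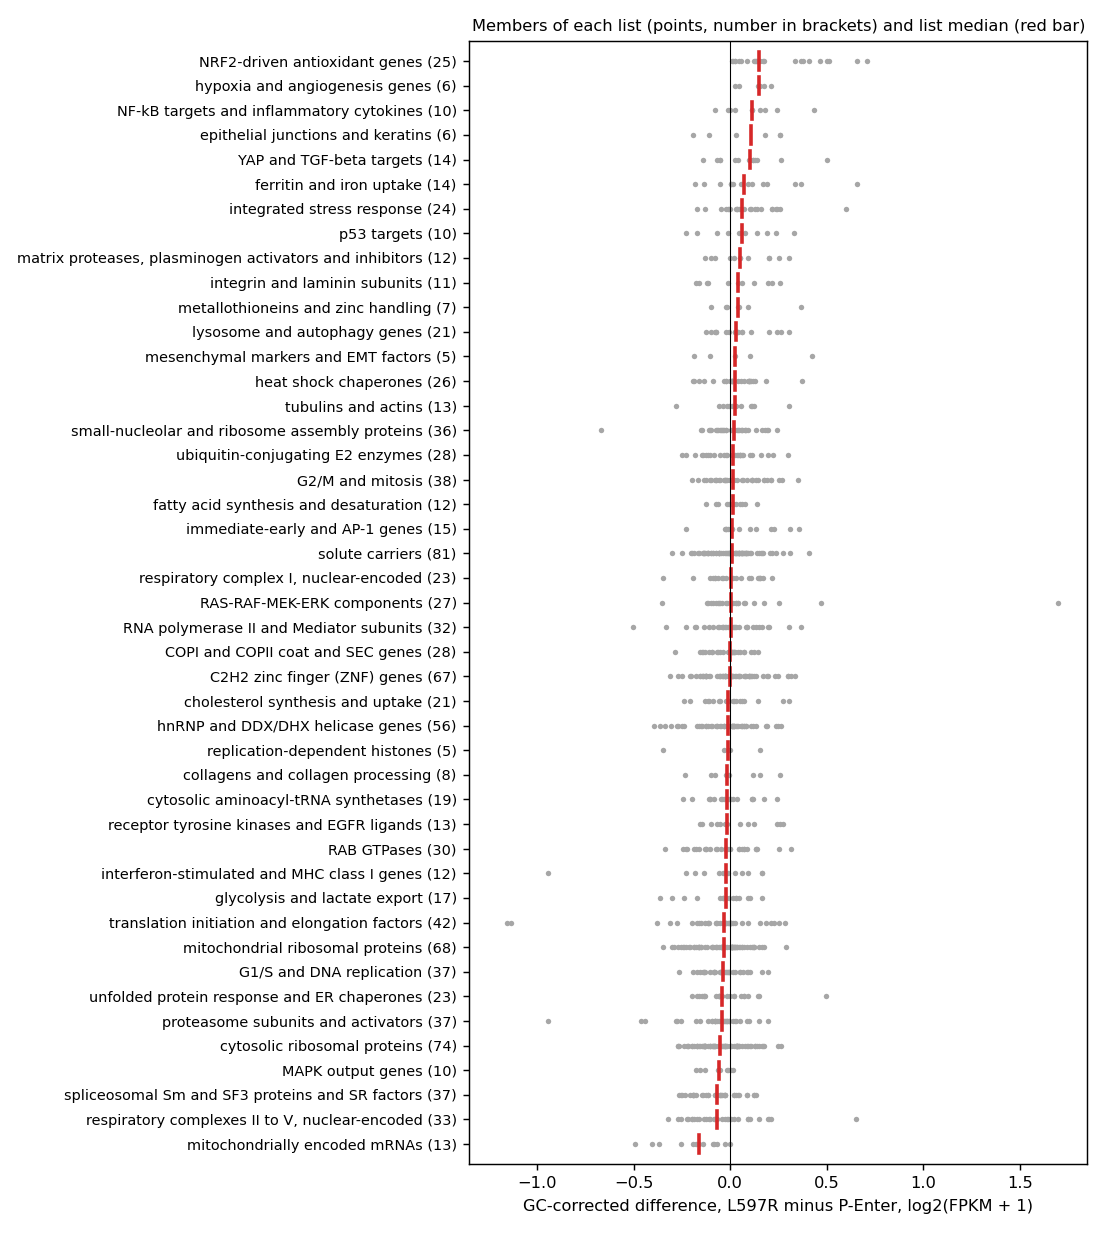
Corrected difference between L597R and P-Enter (x axis, log2(FPKM + 1)) for each member of the lists with at least 5 members, with the list median as a red bar. Medians run from -0.16 (mitochondrially encoded mRNAs) to 0.15 (NRF2-driven and hypoxia genes), and single genes such as BRAF and EIF3K stand far outside their list.

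Most of the genes past 0.32 belonged to no list: the 46 lists took in 1113 of the members (18.03%) and held 24 of the 94 higher and 22 of the 77 lower genes. Outside the rule for named genes, and picked after their values were seen, RND3 was at 10.6, 13.5 and 18.7 FPKM in P-Enter, WT and L597R (0.53). NAV3 was at 6.33, 7.71 and 9.76 FPKM (0.52) and CBX3, a heterochromatin protein, at 38.7, 45 and 54.8 FPKM (0.48). All 3 were highest in the mutant library with WT between. By chromosome the corrected medians of nuclear genes ran from -0.02 to 0.04. Genes past 0.32 were more frequent in the third of members with the shortest total exon length (46 higher and 43 lower of 2058). In the third with the longest there were 21 and 17 of 2058. A shorter gene collects fewer reads at the same FPKM, and the part of counting error in this was not tested.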

How the data were processed

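Poly(A)-selected RNA of 3 DU145 libraries was measured by stranded RNA-seq. The authors deposited FPKM per Ensembl gene for each library. The submitters' processing notes name Trimmomatic, HISAT2, Cufflinks, HTSeq and hg38 (GRCh38), and their versions, the annotation release and the strand setting are not given in the sources used here. FPKM values divide by exon length and by the library's reads, so a trend with base composition stays in them.

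Groups came from the labels, 1 library each. Genes were joined by Ensembl ID with GENCODE 29 for class, exon length and GC content (22807 of 23379 genes matched; of the 572 others, 5 had a mean of at least 5 FPKM and were left out). The measure was log2(FPKM + 1) in L597R minus P-Enter, less a lowess curve on exon GC content (fraction 0.3, 3 iterations, statsmodels 0.14.6, Python 3.11.15), with 1.5-fold as the main limit. Whole reads were recovered from the FPKM steps for 23376 genes (99.99%; relative tolerance 1e-06, absolute tolerance 0.001), and their sum was 100.8% of each library total, the reason for which was not tested. The gene length found in this step equalled the annotated exon length for 48.63% of annotated genes and lay within 10% of it for 87.25%. For the others the read numbers, and with them the interval widths, are less certain. Read ratios, scaled to the totals and divided by the GC trend, carry exact Clopper-Pearson 95% intervals. No count test was run, since 1 library a group leaves no residual spread. The steps were tested on simulated data.

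Named are BRAF, up to 15 genes past 1.5-fold in each direction by size, and up to 4 members of each list past 0.32 on the log2 scale. Members below that size named to show a pathway's range were chosen after their values were seen. Genes, lists and rules were chosen with earlier results of these data known. Other corrections, pseudocounts, expression limits and fold limits were tried. Overlaps of exons are from GENCODE 29, and promoters are from RefSeq (GRCh38.p14). A few members of the lists enter their counts but are not reported by name here.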

Additional observations from a re-analysis of the deposited data

How the results depend on the processing

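No paired analysis was possible because each group has 1 library, and for the same reason no library could be left out. The 7 genes higher by 1.5-fold became 30 without the GC correction, 2 with a pseudocount of 5 FPKM, 22 with a mean of at least 1 FPKM, 1 with at least 20 FPKM, 94 at a limit of 0.32, 1 at 2-fold and 1176 by an interval of the read ratio beyond 1. The 11 lower genes became 6 with a pseudocount of 5, 34 at 1 FPKM, 5 at 20 FPKM, 77 at 0.32, 3 at 2-fold and 1194 by the interval. An interval wholly beyond 0.32, chosen after seeing the data, gave 21 higher and 29 lower. Without the correction 2 of the 7 higher and 9 of the 11 lower genes were among those called. BRAF stood at 1.70, against 2.0 without the correction, 2.14 with a pseudocount of 0.1, 0.91 with a pseudocount of 5 and 2.21 in recovered reads. POLR2K reversed from -0.33 to 0.0657 without the correction, and the median of the epithelial list reversed from 0.11 to -0.10 at 1 FPKM, where more genes enter; the cause was not tested. Of the NRF2 list, 24 or 25 of 25 members stayed above 0 under the other corrections and pseudocounts, and 19 without correction. Depth limits MT-ATP8 (21 reads in P-Enter) and, among genes past a limit, COX8A, DDIT3, EID3 and H2BC11, whose intervals are wide.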

Other observations

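Among the 3188 protein-coding genes with a mean of 1 to 5 FPKM, which lie below the limit used above, 15 were higher and 23 lower by 1.5-fold after the same correction, and the interval of the uncorrected read ratio left out 1 for 14 and 23 of them. The genes below were picked after their values were seen. NDUFS3, a core subunit of respiratory complex I, had 135, 36 and 32 reads (in the order P-Enter, WT, L597R), an uncorrected read ratio of 0.19 (0.125 to 0.281). It spans chr11:47565336-47584562, near MTCH2 (-1.05) and FNBP4 (-0.35), which were also lower in L597R. CELF1, 51746 bases from MTCH2, was at -0.11, within the middle 90% of the genes used above. SURF1, an assembly factor of cytochrome c oxidase, had 134, 45 and 60 reads (0.358, 0.26 to 0.49). Both genes were low in the 2 libraries given BRAF. IFNGR2, a chain of the interferon gamma receptor, had 78, 86 and 42 reads (0.431, 0.289 to 0.635), low in the mutant library alone. On the higher side MMP3, given above, was at a corrected difference of 1.37. The chemokine CXCL2 had 32, 47 and 77 reads (1.93, 1.26 to 3.01), TNFSF9, the ligand of 4-1BB, 81, 128 and 161 reads (1.59, 1.21 to 2.11), and the cell cycle inhibitor SFN 22, 25 and 49 reads (1.78, 1.06 to 3.1). CXCL2 and TNFSF9 stood between the others in WT, whereas SFN in WT was near the control once scaled to depth (1.27, 1.22 and 2.26 FPKM).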
